A study of Homo sapiens with 6 samples.

Results

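A set of 10 regulators of epithelial identity was followed in MKN28 cells after depletion of LTBP1, and all 10 were found among the 19960 genes of the deposited table by their symbol. They are 6 epithelial regulators (ESRP1, ESRP2, GRHL1, GRHL2, OVOL1 and OVOL2) and 4 transcription factors of the epithelial-mesenchymal transition, or EMT (ZEB1, ZEB2, SNAI1 and SNAI2). MKN28 is an established human gastric cancer cell line. RNA was sequenced from 3 libraries of stable cells expressing a scrambled hairpin plasmid (shSCR) and 3 libraries of stable cells expressing a hairpin plasmid against LTBP1 (shLTBP1), all grown in RPMI 1640 with 10% fetal bovine serum. LTBP1 is a matrix protein that binds and stores latent TGF-beta, and the design sets cells depleted of it against control cells. The labels name 1 plasmid per group and do not say whether the stable cells were clones or pools, nor whether libraries of a group were grown as separate cultures. The p-values therefore reflect only the spread among these libraries, and that spread may be technical.

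Epithelial cells hold their junctions and polarity through a small set of regulators. ESRP1 and ESRP2 are RNA-binding proteins that set epithelial patterns of alternative splicing, GRHL1 and GRHL2 are grainyhead-like transcription factors that activate junction genes, and OVOL1 and OVOL2 are zinc finger repressors that hold EMT factors down. Opposite them stand the SNAI factors, zinc finger repressors, and the ZEB factors, which carry zinc fingers and a homeodomain. Both bind E-boxes in the promoters of epithelial genes such as CDH1 and silence them. TGF-beta is a classical inducer of SNAI and ZEB genes in epithelial cells, and ZEB factors in turn repress ESRP1, GRHL2 and OVOL2.

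The 6 epithelial regulators were expressed in both groups, and 3 of them changed, each by less than 2-fold. Among all tested genes 53.1% were called as changed. OVOL1 rose to 155.4% of its control level, and ESRP2 and GRHL1 fell to 75.2% and 75.8%, while ESRP1, GRHL2, OVOL2 and SNAI1 did not pass the test. ZEB1, ZEB2 and SNAI2 were near 0 in all 6 libraries and were not tested. GRHL1 lies on chromosome 2, where most genes were lower, and it was slightly above the median of its neighbours.

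LTBP1 itself, the target of the hairpin, was low in each shLTBP1 library. It had normalized counts of 977, 964 and 1011 in shSCR and of 59.0, 66.8 and 49.0 in shLTBP1. The log2 fold change was -4.07 with a standard error of 0.12 (adjusted p = 1.18e-08 in limma). With the neighbours' median subtracted, as described below for GRHL1, the log2 fold change of LTBP1 was -3.484 (adjusted p = 2.08e-08 in limma). The deposited values are read counts normalized by the authors, and they summed to 30479879 to 30941103 per library, so the sequenced depth is unknown. Mitochondrial genes took 2.35% to 2.50% of the total in shSCR and 3.199% to 3.72% in shLTBP1, and their part in the results was not tested. Fold changes are on the log2(value + 1) scale, shLTBP1 over shSCR. A call is a limma Benjamini-Hochberg adjusted p under 0.05 over the 12789 genes with a mean of at least 10.

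The labelled cell type was checked against marker genes. The epithelial markers EPCAM, CDH1, KRT7, KRT8, KRT18 and KRT19 were all expressed, whereas the gastric markers CLDN18, TFF2, MUC6 and GKN1 were at 0 in all 6 libraries, and TFF1 and MUC5AC did not exceed 2.87. Of these 6 epithelial markers, 2 rose and 3 fell, beside 26.3% and 26.8% of all tested genes. With the neighbours' median subtracted, as described for GRHL1, 1 rose and 4 fell. The list of these markers, the gastric genes included, summed to between 313628 and 334925 in shSCR and between 282859 and 307373 in shLTBP1. The list of 10 fibroblast markers summed to 1112 to 1349 in shSCR and 711 to 938 in shLTBP1, most of it COL1A1. LUM was listed at 0 in shSCR and at 36.6 to 52.0 in shLTBP1, and THY1 was at 0 in every library. The 10 blood markers summed to 364 to 1332 and to 647 to 767, with HBA1 at 803 in shSCR replicate 3 and at most 11.99 elsewhere. HBB was at 132 in that same library and at 0 in all others. CD68, a macrophage gene of that list, rose from 366 ± 22.5 to 669 ± 56.7 (SD, n = 3 each; log2 fold change 0.87, adjusted p = 2.87e-05 in limma). The 6 endothelial markers summed to 35.6 to 52.1 and to 23.9 to 33.0, with CLDN5 at 0. The part of these markers in the results was not tested.

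Promoter sequence was at hand in the RefSeq table (GRCh38.p14) for 3 of the 10 regulators, GRHL1, ZEB1 and ZEB2. The 250 bases before the start site are shown for GRHL1, a called gene, and for ZEB1, whose RNA was near 0, both on the plus strand and upstream of every annotated start of the gene. They were searched on both strands for the E-box CAGGTG, which ZEB and SNAI proteins bind, for the grainyhead site AACCGGTT and for the OVOL site CCGTTA. Capitals mark a match. The windows are chr2:9951443-9951692 for GRHL1 and chr10:31318167-31318416 for ZEB1.
GRHL1: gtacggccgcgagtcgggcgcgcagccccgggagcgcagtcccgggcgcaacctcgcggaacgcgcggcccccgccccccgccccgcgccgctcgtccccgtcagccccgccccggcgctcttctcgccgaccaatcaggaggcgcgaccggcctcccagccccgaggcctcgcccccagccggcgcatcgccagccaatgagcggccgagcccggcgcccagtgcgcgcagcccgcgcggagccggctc
ZEB1: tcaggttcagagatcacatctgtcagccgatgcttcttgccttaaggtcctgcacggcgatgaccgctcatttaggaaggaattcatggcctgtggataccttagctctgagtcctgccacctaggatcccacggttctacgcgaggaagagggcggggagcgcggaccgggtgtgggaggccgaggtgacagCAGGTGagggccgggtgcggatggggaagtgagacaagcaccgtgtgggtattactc
This ZEB1 window holds 1 E-box, which starts 57 bases before the start site. The window also overlaps an annotated antisense gene, ZEB1-AS1. Windows of 6 further ZEB1 start sites, which overlap the annotated ZEB1 gene and are not printed, hold 2 E-boxes in 1 window and an OVOL site in another, and the ZEB2 window holds no match. None of the motifs is in the GRHL1 window, in which 81.6% of bases are G or C, against 59.2% for ZEB1. Of 35116 such windows in the table, 17.5% hold this E-box, 2.45% the OVOL site and 0.117% the grainyhead site. A match is a description of the letters and does not show binding.

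Of the splicing regulators, ESRP2 fell and ESRP1 did not pass the test. ESRP1 (ENSG00000104413, chromosome 8 from 94641074 to 94707466 in hg38) had normalized counts of 11089, 10820 and 11089 in shSCR and 10967, 9945 and 11283 in shLTBP1. The groups overlapped, with shLTBP1 replicate 2 the lowest library and shLTBP1 replicate 3 the highest. The log2 fold change was -0.037 with a 95% interval of -0.15 to 0.079 (adjusted p = 0.569 in limma).

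ESRP2 (ENSG00000103067, chromosome 16 from 68229111 to 68238102), its paralog with overlapping splicing targets, fell. It was at 4119.6, 3965 and 3925 in shSCR and at 3046, 2909 and 3082 in shLTBP1. Every shLTBP1 library lay below every shSCR library. The means were 4003 ± 103 and 3012 ± 91.5 (SD, n = 3 each), a log2 fold change of -0.41 with a standard error of 0.047 (adjusted p = 5.89e-05 in limma). In a bulk culture, fewer cells that express a gene and less RNA per cell cannot be told apart. The exons of ESRP2 overlap a miRNA gene and a noncoding gene on the same strand, which could share its reads, and those of NFATC3 on the opposite strand. The strand setting of the counting is not given in the sources used here. NFATC3 was not called (log2 fold change -0.17, adjusted p = 0.115 in limma).

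Of the grainyhead factors, GRHL1 fell and GRHL2 did not pass the test. GRHL1 (ENSG00000134317, chromosome 2 from 9951693 to 10002277) was at 6189, 5749 and 5954 in shSCR and at 4668, 4314 and 4578 in shLTBP1, with no overlap. The means were 5964 ± 220.1 and 4519.8 ± 184 (SD, n = 3 each), and the log2 fold change was -0.40 with a standard error of 0.049 (adjusted p = 9.77e-05 in limma). GRHL2 (ENSG00000083307, chromosome 8 from 101492432 to 101669726), the factor most closely tied to CDH1 and claudin expression, was at 3835, 4065 and 3930.3 in shSCR and at 4264, 3969 and 4236 in shLTBP1. Its groups overlapped at 1 pair of libraries, shSCR replicate 2 and shLTBP1 replicate 2. The log2 fold change of GRHL2 was 0.075, with a 95% interval of -0.034 to 0.18 (adjusted p = 0.219 in limma).

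Position on the chromosome bears on GRHL1. The median log2 fold change of the 852 tested genes of chromosome 2 was -0.56, and 88.8% of them were below 0, against a median of 0.004 over all genes tested. Among the 47 tested genes closest to GRHL1 (up to 25 on each side), the median was -0.50, 38 were below 0, and 17 had a higher log2 fold change than GRHL1. With the median of these neighbours subtracted in each library, GRHL1 had a log2 fold change of 0.14 with a standard error of 0.049 and a 95% interval of 0.027 to 0.24 (adjusted p = 0.0415 in limma). The value of GRHL1 therefore changed sign. The interval and p-value after subtraction reflect the spread among libraries and not the scatter among the neighbours. They do not set GRHL1 apart from its neighbours. Under the same subtraction 48.8% of all genes were called. ZEB2 also lies on chromosome 2, from 144364364 to 144524583.

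**Figure D1:**
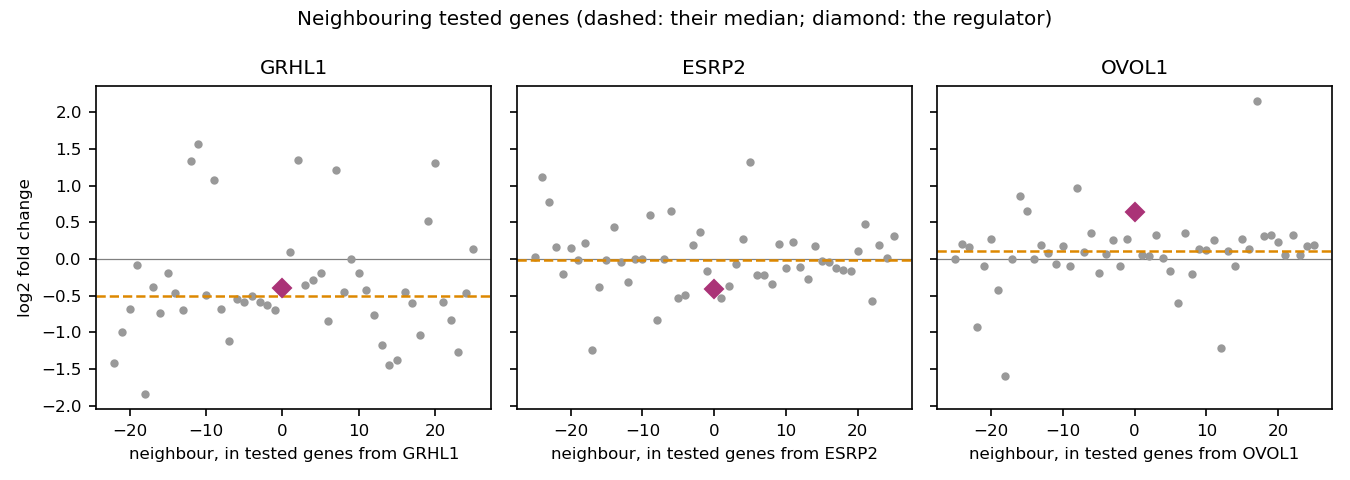
Log2 fold change (shLTBP1 over shSCR, vertical axis) of up to 25 tested genes on each side of GRHL1, ESRP2 and OVOL1, in gene order (horizontal axis); grey points are neighbours, the dashed line is their median and the diamond is the regulator. GRHL1 lies near its neighbours' median of -0.50, whereas ESRP2 and OVOL1 lie away from medians of -0.014 and 0.11.

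The neighbours of the other tested regulators were closer to 0. Their medians ran from -0.11 around ESRP1 to 0.14 around OVOL2, each over 50 genes. ESRP2 had a lower log2 fold change than 44 of its 50 neighbours and stayed at -0.41 after subtraction (adjusted p = 0.000203 in limma). OVOL1 was exceeded by 4 of its 50 neighbours and was at 0.53 after subtraction (adjusted p = 4.96e-05 in limma). These values are drawn in the plots of neighbouring genes and of fold changes before and after subtraction.

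OVOL1 showed the largest change among the 7 tested regulators. OVOL1 (ENSG00000172818, chromosome 11 from 65787022 to 65797219) was at 1464.5, 1367 and 1511 in shSCR and at 2205, 2297 and 2244 in shLTBP1. Its exons overlap those of an antisense gene on the opposite strand. The lowest shLTBP1 library exceeded the highest shSCR library by a wide gap. The means were 1447 ± 73.5 and 2249 ± 46.3 (SD, n = 3 each), a log2 fold change of 0.64 with a standard error of 0.056 (adjusted p = 9.77e-06 in limma). As many as 20.1% of all tested genes had a larger absolute log2 fold change than OVOL1, and 33.5% and 34.2% had a larger one than ESRP2 and GRHL1.

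OVOL2 (ENSG00000125850, chromosome 20 from 17956979 to 18059188), which represses ZEB1 and TGF-beta signalling genes, was not called. It was at 286.5, 258 and 295 in shSCR and at 197, 262 and 237.5 in shLTBP1, and shLTBP1 replicate 2 lay above shSCR replicate 2. The log2 fold change was -0.27 with a 95% interval of -0.55 to 0.00 (adjusted p = 0.0853 in limma). OVOL2 passed with the neighbours' median subtracted (-0.39, adjusted p = 0.0219 in limma), and it also did when shLTBP1 replicate 2 was left out (-0.37, adjusted p = 0.0356 in limma). Its exons overlap those of SNX5 on the same strand, so reads could be shared, and SNX5 rose by 0.17 (adjusted p = 0.00878 in limma), or by 0.075 relative to its own neighbours, where it was not called.

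**Figure D2:**
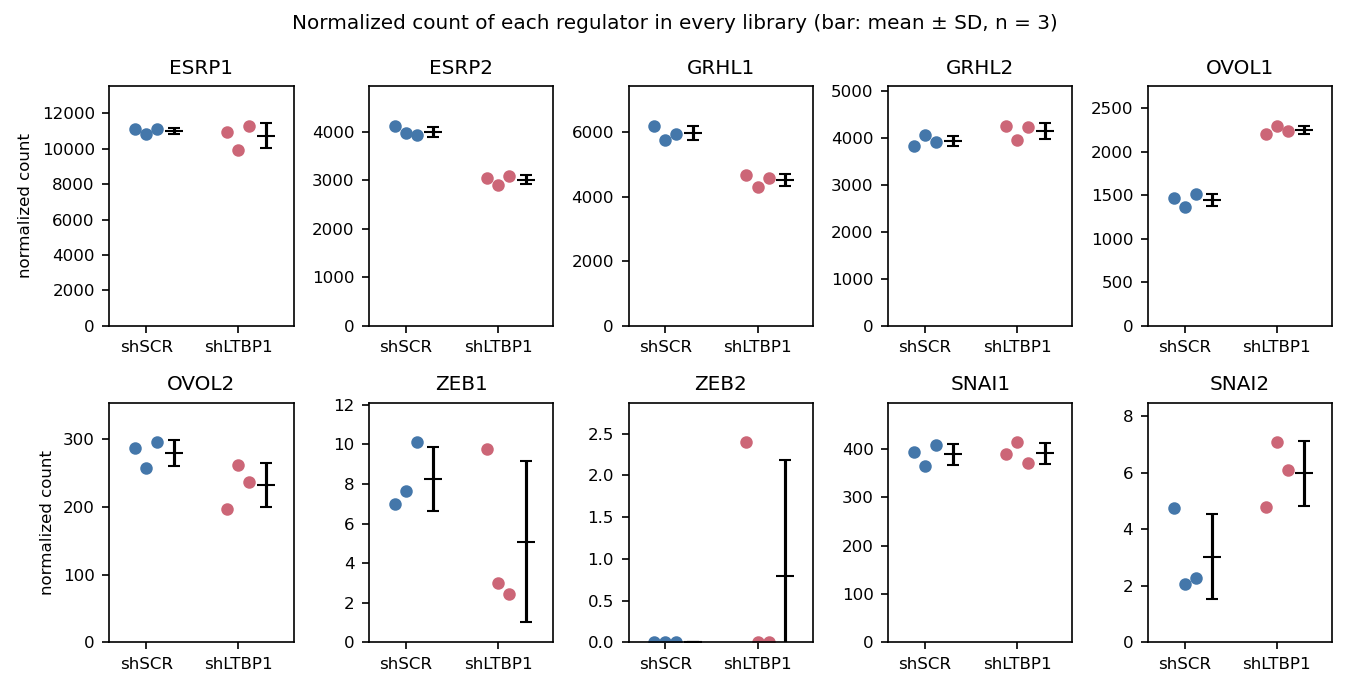
Normalized count (vertical axis, from 0) of each of the 10 regulators in the 3 shSCR and 3 shLTBP1 libraries; points are libraries and the bar beside them is the mean ± SD. The groups separate for ESRP2, GRHL1 and OVOL1, while ZEB1, ZEB2 and SNAI2 stay at or below 10.1 in every library.

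Among the EMT factors 1 was tested and not called. SNAI1 (ENSG00000124216, chromosome 20 from 49982999 to 49988886), a repressor of CDH1 and an early TGF-beta response gene, was the 1 member of its group with a mean of at least 10. It was at 393, 365 and 408 in shSCR and at 389.8, 413 and 370.5 in shLTBP1, fully interleaved. The means were 389 ± 21.6 and 391 ± 21.5 (SD, n = 3 each). The log2 fold change was 0.009, with a 95% interval of -0.18 to 0.20 (adjusted p = 0.937 in limma), and 98.0% of tested genes had a larger absolute one.

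The other 3 EMT factors were below the minimum mean and were given no call. ZEB1 (ENSG00000148516, chromosome 10 from 31318495 to 31529814) was at 7.003, 7.66 and 10.1 in shSCR and at 9.76, 3.02 and 2.46 in shLTBP1. SNAI2 (ENSG00000019549, chromosome 8 from 48917604 to 48921740) was at 4.76, 2.06 and 2.27 in shSCR and at 4.78, 7.07 and 6.10 in shLTBP1. ZEB2 (ENSG00000169554) was listed at 0 in every library but shLTBP1 replicate 1, where it was at 2.39. ZEB1 overlapped between the groups, and the SNAI2 groups were split by a gap that is small beside their spread. When all 16690 genes above 0 in any library were fitted, of which 40.6% were called, none of these 3 passed: the adjusted p in limma was 0.223 for ZEB1, 0.119 for SNAI2 and 0.439 for ZEB2. Antisense genes overlap exons of ZEB1 and ZEB2, which adds to the uncertainty of their counts. The 95% interval of the log2 fold change in this fit was -1.85 to 0.28 for ZEB1. It was -0.039 to 1.72 for SNAI2 and -0.63 to 1.81 for ZEB2. At such values a fall or a small rise could be missed, and the absence of a change is not shown.

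Of the 7 tested regulators 3 were called, 1 higher and 2 lower. Among all tested genes 53.1% were called, 26.3% as higher and 26.8% as lower. The groups did not overlap for 3 of the 7, and for 60.8% of all tested genes. The count of called regulators is therefore not above that of genes in general, and their median log2 fold changes were -0.16 over the 6 epithelial regulators and 0.009 for SNAI1. An exact two-sided permutation test gave p = 0.1 for ESRP2, GRHL1 and OVOL1, the smallest that 3 against 3 libraries allow, 0.2 for GRHL2 and OVOL2, and 0.8 for ESRP1 and SNAI1.

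**Figure D3:**
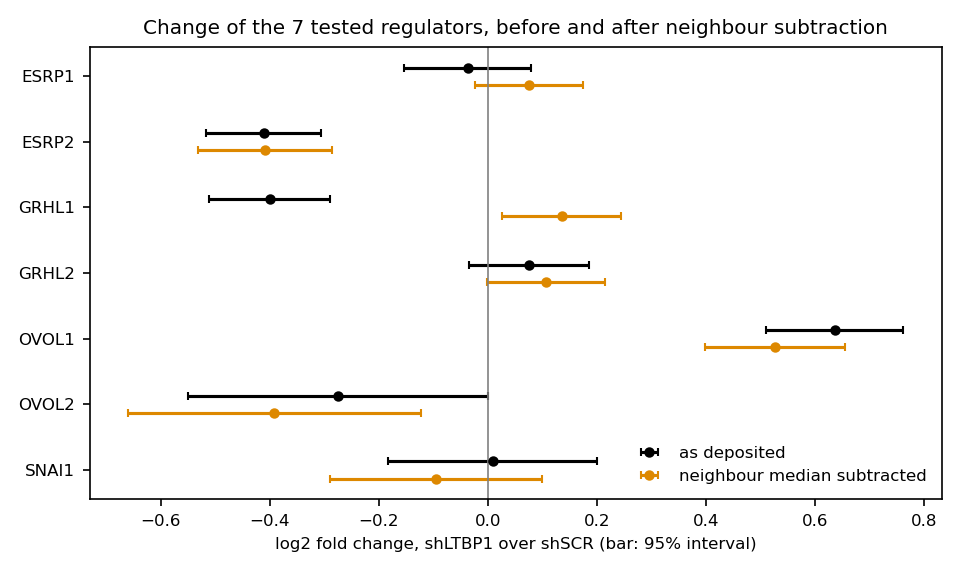
Log2 fold change (horizontal axis, shLTBP1 over shSCR) of the 7 tested regulators with 95% intervals, as deposited (black) and with the median of neighbouring genes subtracted (orange). GRHL1 moves from -0.40 to 0.14, and OVOL2 from -0.27 to -0.39.

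Levels between genes were compared as normalized count per kb of the longest annotated protein-coding transcript. In shSCR the order was ESRP1 (2890 ± 40.9), GRHL1 (1674 ± 61.8), ESRP2 (1055 ± 27.1), GRHL2 (753 ± 22.0), OVOL1 (477 ± 24.2), SNAI1 (231 ± 12.8) and OVOL2 (180.0 ± 12.7; SD, n = 3 each), followed by ZEB1 at 1.32 ± 0.26, SNAI2 at 1.25 ± 0.62 and ZEB2 at 0. Neighbours in this order did not overlap, except ZEB1 and SNAI2. In shLTBP1 the first 7 places were the same, but the middle drew together: ESRP2 was at 794 ± 24.1, GRHL2 at 793 ± 31.1 and OVOL1 at 741 ± 15.3 per kb, and ESRP2 and GRHL2 could not be ranked within their spread. SNAI1 was thus present at more than the level of OVOL2 per kb in both groups. The place of GRHL1 rests on the length used. With all annotated exons merged it was at 750.0 per kb in shSCR, overlapping ESRP2 at 719.6, and in shLTBP1 it was at 568, after GRHL2 and overlapping OVOL1 and ESRP2.

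**Figure D4:**
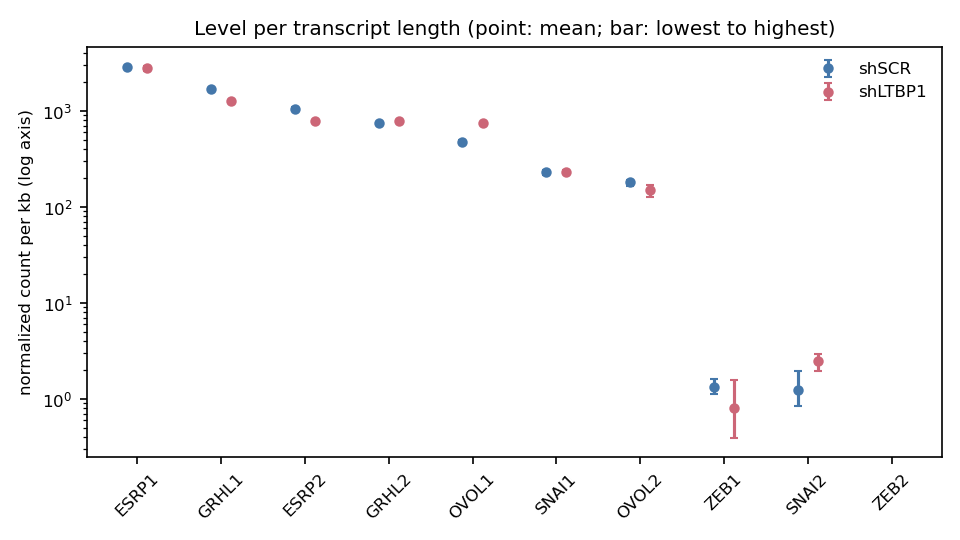
Normalized count per kb of transcript (vertical log axis) of the regulators in shSCR and shLTBP1; points are means and bars run from the lowest to the highest library. The epithelial regulators and SNAI1 lie above 100 in mean, ZEB1 and SNAI2 near 1, and ZEB2 has no point because libraries at 0 cannot be drawn on a log axis.

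Ratios of 2 regulators within a library do not depend on how libraries were scaled. These pairs were chosen after the values were seen. The ratio of ESRP2 to ESRP1 per kb was 0.373, 0.368 and 0.355 in shSCR and 0.279, 0.294 and 0.274 in shLTBP1. GRHL1 to GRHL2 went from 2.23 ± 0.15 to 1.599 ± 0.010, and OVOL1 to OVOL2 from 2.65 ± 0.056 to 5.02 ± 0.64 (SD, n = 3 each). For OVOL1 against SNAI1 the ratio was 2.07 ± 0.010 in shSCR and 3.199 ± 0.15 in shLTBP1. Each pair holds a called regulator, so that the groups separate is given by the choice, and no test is added. Relative to their neighbours, GRHL1 and GRHL2 had log2 fold changes of 0.14 and 0.11, so the lower ratio of GRHL1 to GRHL2 is not seen on that scale. Summed per kb, ESRP1 and ESRP2 together stood at 91.6% of the control level and OVOL1 and OVOL2 together at 135.6%.

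Other genes of the network were taken from 9 lists with 157 different genes, of which 133 were tested, 31 rose and 53 fell. Among all tested genes 26.3% rose and 26.8% fell (median 0.004), and the counts of each list are descriptions to be read beside these shares. Of 17 further epithelial transcription factors 12 were tested, of which 7 rose and 3 fell, and the median was 0.32. CDX2, an intestinal homeobox factor, rose from 1377 ± 100.2 to 2677 ± 262, and ELF3, an epithelial ETS factor, from 1557 ± 34.4 to 2977 ± 73.6 (SD, n = 3 each; adjusted p = 7.73e-06 and 3.87e-07 in limma). GRHL3, the remaining grainyhead factor, which was singled out after its values were seen, rose from 1515 ± 30.0 to 1951.5 ± 86.3 (log2 fold change 0.36, adjusted p = 0.00035 in limma).

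Of 18 further EMT factors 12 were tested, of which 3 rose and 7 fell, and the median was -0.68, again beside 26.3% and 26.8% of all genes. TWIST1, PRRX1, GSC and TBXT were at 0 in all libraries. FOXQ1, a forkhead factor, fell from 3558 ± 28.4 to 996 ± 51.6, and ETS1 from 782 ± 68.9 to 273 ± 9.60 (SD, n = 3 each; adjusted p = 1.18e-08 and 6.9e-07 in limma). SOX4 and LEF1 rose by 0.61 and 0.42 on the log2 scale. SNAI3, the third SNAI gene, also chosen after its values were seen, was at 12.4, 24.5 and 15.6 in shSCR and at 5.82, 7.06 and 5.29 in shLTBP1 (log2 fold change -1.35, adjusted p = 0.0213 in limma), a call lost without shLTBP1 replicate 1 (adjusted p = 0.0505 in limma).

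Target genes of the regulators moved in both directions. Of 14 tested GRHL targets, 5 rose and 4 fell, and their median was 0.10. CLDN4, a tight junction claudin, rose by 0.27 and LSR by 0.33, while the surface protein gene EPCAM fell, with a log2 fold change of -1.12. EPCAM lies on chromosome 2 and was at -0.55 with the neighbours' median subtracted, and LSR was no longer called (0.095, adjusted p = 0.137 in limma). That subtraction left 3 GRHL targets called higher in place of 5.

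Among 25 epithelial genes that ZEB or SNAI factors repress, 5 were called higher (8 with upper quartile scaling), 11 were called lower, and the median was -0.12. MUC1 rose from 417 ± 33.2 to 1158 ± 81.2, and LLGL2, a polarity gene, by 0.38 on the log2 scale. The desmosomal PKP2 fell from 4609 ± 266 to 1339 ± 75.5 and the junction adaptor CGN from 2077 ± 45.7 to 722 ± 67.7 (SD, n = 3 each; adjusted p = 2.92e-08 and 2.09e-07 in limma). CDH1, the E-cadherin gene and classical target of SNAI1, fell from 18581 ± 1054 to 14644 ± 866 (log2 fold change -0.34, adjusted p = 0.00072 in limma).

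Of 22 listed mesenchymal genes, 10 were tested, of which 1 rose (2 without shSCR replicate 3 or shLTBP1 replicate 2) and 5 fell. The median was -0.37, and the 12 untested genes did not exceed 9.22 in any library. VIM, the intermediate filament gene of mesenchymal cells, was at 0, 4.50 and 1.51 in shSCR and at 0.795, 0 and 0.868 in shLTBP1. AXL and FN1 fell, with log2 fold changes of -2.12 and -1.72, and S100A4 rose by 0.98. FN1, on chromosome 2, was at -1.12 with the neighbours' median subtracted.

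**Figure D5:**
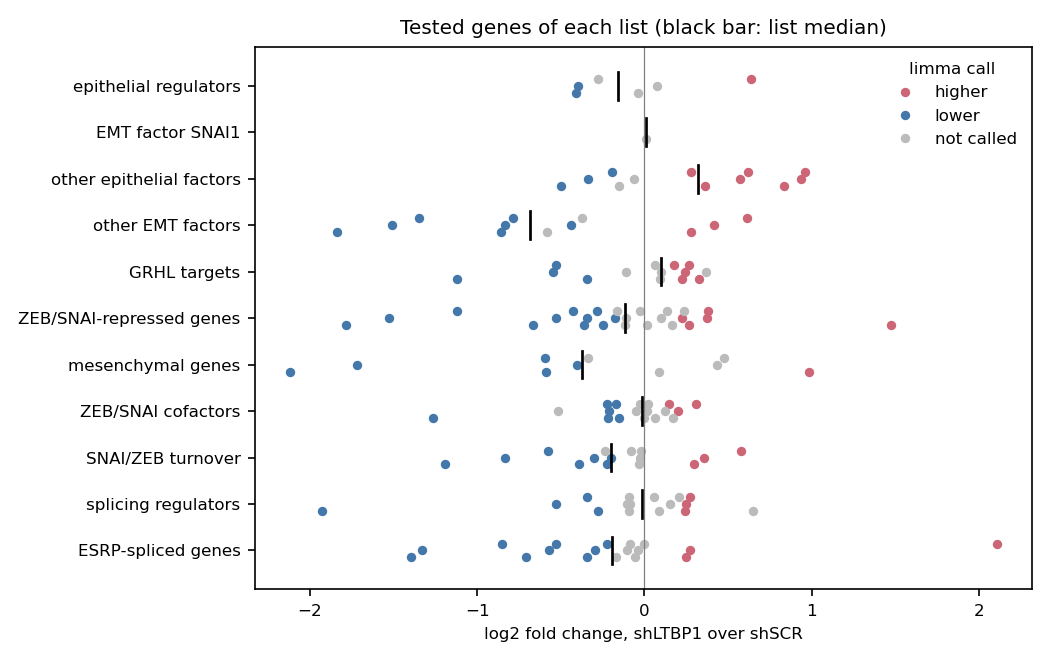
Log2 fold change (horizontal axis) of every tested gene in the 2 groups of regulators and the 9 other lists (rows); red points were called higher, blue lower and grey not called, and black bars are list medians. Other epithelial factors have a median of 0.32 and other EMT factors of -0.68, while both target lists hold genes on either side of 0.

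Cofactors and turnover genes bear on the activity of SNAI and ZEB proteins, which these RNA values do not show. Of 18 tested cofactors, 3 rose and 6 fell (3 with quantile normalization), and their median was -0.014. The LIM protein AJUBA, a SNAI1 partner, fell from 498 ± 161 to 202 ± 44.97 (SD, n = 3 each; adjusted p = 0.00178 in limma), and the corepressor SIN3A had a log2 fold change of -0.22. RCOR1 and KAT2B rose by 0.20 and 0.31, but each lost its call when any 1 of 4 libraries was left out. For RCOR1 these were shSCR replicates 1 and 2 and shLTBP1 replicates 1 and 3 (adjusted p up to 0.0624 in limma), and for KAT2B shSCR replicates 2 and 3 and shLTBP1 replicates 1 and 3 (adjusted p up to 0.0849 in limma). RCOR1 was also not called relative to its neighbours (0.105, adjusted p = 0.222 in limma), nor KAT2B without the variance trend (adjusted p = 0.0502 in limma). The count of cofactors called higher was 0 without shSCR replicate 2, shLTBP1 replicate 1 or shLTBP1 replicate 3, 1 without shSCR replicate 1, and 5 without shLTBP1 replicate 2. Of 15 tested genes of SNAI and ZEB protein turnover, 3 rose and 7 fell (4 without shLTBP1 replicate 2), and the median was -0.20. The ubiquitin ligase genes FBXO45 and FBXO11 had log2 fold changes of 0.57 and -0.58, and neither was called with the neighbours' median subtracted (0.11 and -0.008). SIAH1 rose by 0.36. LOXL2 fell from 22.4 ± 4.89 to 9.59 ± 4.01 (adjusted p = 0.0285 in limma), a call lost without any 1 of shSCR replicates 1 and 2 and shLTBP1 replicates 1 and 2 (adjusted p up to 0.101 in limma).

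Splicing genes complete the network around the ESRP proteins. Of 16 tested regulators that act beside or against them, 3 rose (5 with quantile normalization, 6 without shLTBP1 replicate 2) and 4 fell, and the median was -0.015. RBM47 and HNRNPF rose by 0.27 and 0.25. CELF2 fell from 558 ± 41.6 to 149.9 ± 42.0 (SD, n = 3 each; adjusted p = 1.33e-05 in limma), and the value of TIA1, on chromosome 2, was -0.53, or 0.083 relative to its neighbours, where it was not called. Of 18 genes whose transcripts ESRP proteins splice, 3 rose and 9 fell in total RNA, and their median was -0.20. EPB41L5, on chromosome 2, and FGFR2 fell, with log2 fold changes of -1.40 and -1.33, and SLK rose by 0.27. Relative to their neighbours, EPB41L5 was at -0.83 and SLK at 0.16, both still called. CD44 was at 5.46, 0.423 and 8.53 in shSCR and at 10.4, 21.9 and 25.6 in shLTBP1 (log2 fold change 2.10, adjusted p = 0.0329 in limma), a call lost without shSCR replicate 2 (1.28, adjusted p = 0.0642 in limma) or shLTBP1 replicate 2 (1.97, adjusted p = 0.0895 in limma), and without the variance trend (adjusted p = 0.0648 in limma). Without shLTBP1 replicate 3 its mean was below the minimum and it was not tested, and with pseudocount 5 its log2 fold change was 1.35. Totals per gene do not show which isoforms were made.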

How the data were processed

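The submitters' processing notes name hg38 as genome build and list, in no stated order, DESeq2, FastQC 0.10.1, RSEM 1.3.1 and STAR 2.7.3a. Libraries were directional, per the labels. Annotation, strand setting and filters of the counting are not stated in the sources at hand. Each deposited value is a signal, that is, a read count scaled by the authors with DESeq2 according to the table's name. Only 35.5% to 37.6% of values under 20 were whole multiples (within 0.1) of the commonest value near 1, so whole reads could not be had and the test was not one for counts. The number of unused per-sample columns was 0.

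Groups came from the sample titles. limma 3.58.1 in R 4.3.3 was fitted to log2(value + 1) for genes whose mean was at least 10, with group as its only term (4 residual and 5.6 prior degrees of freedom, mean-dependent trend). P-values were two-sided and adjusted by Benjamini-Hochberg over 12789 genes. The procedure was also run on simulated whole counts, drawn independently for each gene, with few changed genes and no shifts shared along a chromosome. That setting differs from these data, so it does not vouch for the calls here. Positions and transcript lengths came from GENCODE 29 on GRCh38, which hg38 names (19872 of 19960 identifiers matched). For the neighbour correction, the median of 25 tested genes on each side was subtracted in each library.

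The regulators, lists and alternatives were chosen with earlier results of these data known. Genes named are LTBP1, the 10 regulators, and from each list up to 2 that rose most and 2 that fell most among called genes whose groups do not overlap. Some genes that this rule picks are not reported here. VIM and genes listed at 0 are named beside their counts. Alternatives were 2 pseudocounts, 2 filters, 2 scalings, 2 variance settings, the replicate block, the neighbour correction, each library left out and, added after seeing the data, another transcript length.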

Additional observations from a re-analysis of the deposited data

How the results depend on the processing

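The log2 fold change of GRHL1 changed sign with the neighbours' median subtracted (0.14 against -0.40, adjusted p = 0.0415 in limma). The count of regulators called higher became 2 in place of 1. The same setting made OVOL2 pass (-0.39), as did leaving out shLTBP1 replicate 2 (-0.37), and OVOL2 lay between -0.37 and -0.16 when 1 library was left out. TIA1 also turned, from -0.53 to 0.083, and was no longer called. The cause of the shared fall along chromosome 2 was not tested. The other alternatives run kept the calls and non-calls of the 7 tested regulators. Among the other single genes named, 23 values under an alternative lost their call without changing direction. Over all genes, calls ranged from 3111 to 3584 higher and from 3113 to 3435 lower when every library was kept, the neighbour correction (3069 and 3151) excepted, and from 2883 to 3215 and from 2945 to 3317 with 1 library left out.

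Same-numbered libraries did not deviate together (Pearson's r of deviations from the group means across genes -0.00925, 0.0584 and -0.00074), and not every library correlated best with its own number. With the replicate number as a block, 3347 genes were higher and 3408 lower, and OVOL1, ESRP2 and GRHL1 had log2 fold changes of 0.64, -0.41 and -0.40. The block moved 2 of the list counts by more than 1.5 times, with 2 mesenchymal genes called higher in place of 1 and 5 splicing partners in place of 3. The depth is unknown, and ZEB1, ZEB2 and SNAI2 are so low that a fall or a small rise could be missed.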
